A study of Homo sapiens with 14 samples.

Results

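The genes of the interleukin-1 (IL-1) family described here are 7 listed ligand and receptor genes, IL1A, IL1B, IL1RN, IL33, IL1R1, IL1RL1 and IL1RAP. They were chosen by name, with earlier results of these data known. They are 7 of the 24638 genes listed in all 3 kinds of deposited table. All cells were IMR90, a line of primary human fetal lung fibroblasts, grown near confluence, and poly(A)-selected RNA was sequenced. The 7 groups were I79 young, I79 old, I10 young and I10 old (I79 and I10 name separate isolates of the line, young cells proliferate and old cells were passaged to replicative senescence), I79 ICM (I79 cells given inflachromene, a compound that targets HMGB1 and HMGB2, chromatin proteins of the high mobility group, with no dose or duration in the labels), WT, and HMGB2 KD (HMGB2 reduced by siRNA). The labels do not say which isolate WT and HMGB2 KD came from or whether WT cells received a control siRNA. Titles list 2 replicates for each group, but the labels do not say that these are separate cultures, and for WT and HMGB2 KD the study's methods do not either, so their p-values measure only the spread between these samples.

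IL-1 alpha (IL1A) and IL-1 beta (IL1B) are ligands that bind the receptor IL1R1, which then recruits the accessory chain IL1RAP and signals through MYD88 and the IRAK kinases to NF-kB. IL1RN encodes a receptor antagonist that occupies IL1R1 without recruiting IL1RAP. IL-33 (IL33) is a nuclear ligand released from damaged cells that signals through IL1RL1, the receptor also called ST2, again with IL1RAP. In fibroblasts IL-1 induces cytokines, chemokines, prostaglandin synthesis and matrix-degrading enzymes, and IL-1 alpha is a known upstream regulator of the secretory phenotype of senescent cells.

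The WT and HMGB2 KD libraries held 33561766 to 41168932 counts, old and young columns between 14991385 and 20632959 estimated counts, and 13290131 and 10971132 reads were given for ICM. WT, HMGB2 KD and ICM gave 1 column per replicate, while each old or young group was given as 1 column, so those 4 columns carry no SD. In CPM (counts scaled to a common library size), HMGB2 was at 27.1 and 27.3 in the WT pair and at 3.22 and 3.64 in the knockdown pair. By edgeR this is -2.99 on the log2 scale (SE 0.16, adjusted p = 8.28e-07). All 8 fibroblast markers were above 1 CPM in every column. The 8 myeloid markers summed to 24.7 to 160 CPM, nearly all of it CD68, which fibroblasts also express. PTPRC, CD163, CSF1R, LYZ, ITGAM and TYROBP each stayed under 1 CPM. CD14 passed 1 CPM only in WT 1 (1.43). WT 2 (0.61), HMGB2 KD 1 (0.46) and HMGB2 KD 2 (0.26) followed in that order, which IL1A and IL1B also took. The part of CD14-expressing cells in the members' values was not tested. The 4 lymphoid markers summed to at most 0.219 CPM, the 5 epithelial markers to 19.5 to 82.6 CPM, the 3 endothelial markers found to 53.2 to 220 CPM and the 3 mast cell markers to 0.438 to 27.1 CPM. The defining genes SFTPC, CDH5 and TPSAB1 were at 0 in all columns, and KRT18, TEK and KIT carried most of the other sums. In bulk RNA, fewer cells that express a gene and less of its RNA per cell cannot be told apart.

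IL1A, IL1B, IL1RN, IL1R1 and IL1RL1 lie on chromosome 2, IL33 on chromosome 9 and IL1RAP on chromosome 3. In GRCh37 (GENCODE v44lift37), IL1A spans 113531502 to 113542070 and IL1B 113587328 to 113594393, both on the minus strand, while IL1RN spans 113856892 to 113891593 on the plus strand. IL1R1 (102681004 to 102796334) and IL1RL1 (102927962 to 102968497) lie on the plus strand of the same chromosome, IL33 at 6215786 to 6257983 and IL1RAP at 190231840 to 190377539, also on the plus strand. IL1R1 overlaps the antisense noncoding gene IL1R1-AS1, and the use of strand in counting was not given, so reads of the pair cannot be told apart. IL1RL1 overlaps IL18R1 on the same strand.

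The 250 bases before the start site are printed for the 4 members with enough reads to follow, since IL1A and IL1B moved alike in these columns while IL1R1 and IL1RAP did not. They come from RefSeq (GRCh38.p14), run 5′ to 3′ on the gene's own strand and end at the base before the start site, and all 7 members had at least 1 such window. The windows of IL1A, IL1B and IL1R1 end at the start of the transcript that held most of the gene's counts (IL1A-201, IL1B-201 and IL1R1-205), and that of IL1RAP ends between the starts of IL1RAP-201 and IL1RAP-206. Capitals mark the AP-1 motif (TGANTCA), the CRE core (TGACG), the TATA box (TATAAA) and the GC box (GGGCGG), searched on both strands. The coordinates are chr2:112784494-112784743 (minus strand) for IL1A, chr2:112836780-112837029 (minus strand) for IL1B, chr2:102142496-102142745 (plus strand) for IL1R1 and chr3:190513835-190514084 (plus strand) for IL1RAP.
IL1A: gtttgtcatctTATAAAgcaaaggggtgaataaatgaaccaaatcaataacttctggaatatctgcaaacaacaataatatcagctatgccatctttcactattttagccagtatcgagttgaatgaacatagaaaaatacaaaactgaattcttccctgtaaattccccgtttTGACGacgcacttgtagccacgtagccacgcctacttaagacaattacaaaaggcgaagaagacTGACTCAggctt
IL1B: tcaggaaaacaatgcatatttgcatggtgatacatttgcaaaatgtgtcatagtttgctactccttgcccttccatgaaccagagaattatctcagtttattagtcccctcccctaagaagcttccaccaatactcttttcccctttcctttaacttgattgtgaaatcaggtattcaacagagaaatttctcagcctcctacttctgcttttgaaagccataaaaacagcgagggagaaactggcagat
IL1R1: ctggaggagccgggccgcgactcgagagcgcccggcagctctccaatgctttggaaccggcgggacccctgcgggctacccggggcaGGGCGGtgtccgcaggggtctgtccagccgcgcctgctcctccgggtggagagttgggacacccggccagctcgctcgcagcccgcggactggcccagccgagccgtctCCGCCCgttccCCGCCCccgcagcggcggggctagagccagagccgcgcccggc
IL1RAP: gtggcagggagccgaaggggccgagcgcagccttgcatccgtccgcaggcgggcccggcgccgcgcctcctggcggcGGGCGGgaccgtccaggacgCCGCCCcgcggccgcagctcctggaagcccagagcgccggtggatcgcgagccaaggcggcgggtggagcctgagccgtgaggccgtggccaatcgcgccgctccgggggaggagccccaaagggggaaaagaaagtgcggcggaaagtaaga

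In the IL1A window an AP-1 motif lay at -12 to -6 from the start site, a CRE core at -76 to -72 and a TATA box at -239 to -234. The IL1R1 window held 3 GC boxes and the IL1RAP window 2, whereas no motif searched was found in the IL1B window. Of 35116 windows of this length, 6.57% held the AP-1 motif, 21.2% the CRE core, 10.7% the TATA box and 42.6% the GC box. The NF-kB motif was found in 9.96% of windows and in none of the 4 printed. Both ligand windows are poor in G and C letters and both receptor windows are rich in them, as the sequences show. A match describes letters only and says nothing of binding in these cells.

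Levels per transcript length could be compared between genes only in the old and young columns, as TPM (transcript levels corrected for length and scaled to a common total). IL1R1, the signalling receptor, was the most abundant member in all 4, at 133 and 131 TPM in the young columns of I79 and I10 and at 46.9 and 26.4 TPM in the old ones. IL1B followed in young cells at 15.3 TPM in I79 and 16.2 in I10, and stood at 4.82 and 0.724 TPM in the old columns. IL1RAP was at 4.85 and 6.64 TPM in young and 11.3 and 10.7 TPM in old cells. The accessory chain was thus below IL1B in both young columns and above it in both old ones. IL1A was at 2.41 and 3.08 TPM in young cells and 1.36 and 0.201 TPM in old cells, and IL33 at 0.924 and 0.581 TPM young and 1.49 and 0.586 TPM old. In young cells the order IL1R1, IL1B, IL1RAP, IL1A, IL33 was the same in both isolates with no overlap between neighbours. In old cells IL1B, IL1A and IL33 overlapped between the isolates and could not be ordered. IL1RL1 did not pass 0.166 TPM in any of the 4 columns and IL1RN had an estimate above 0 only in I79 old (0.102 TPM).

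**Figure D1:**
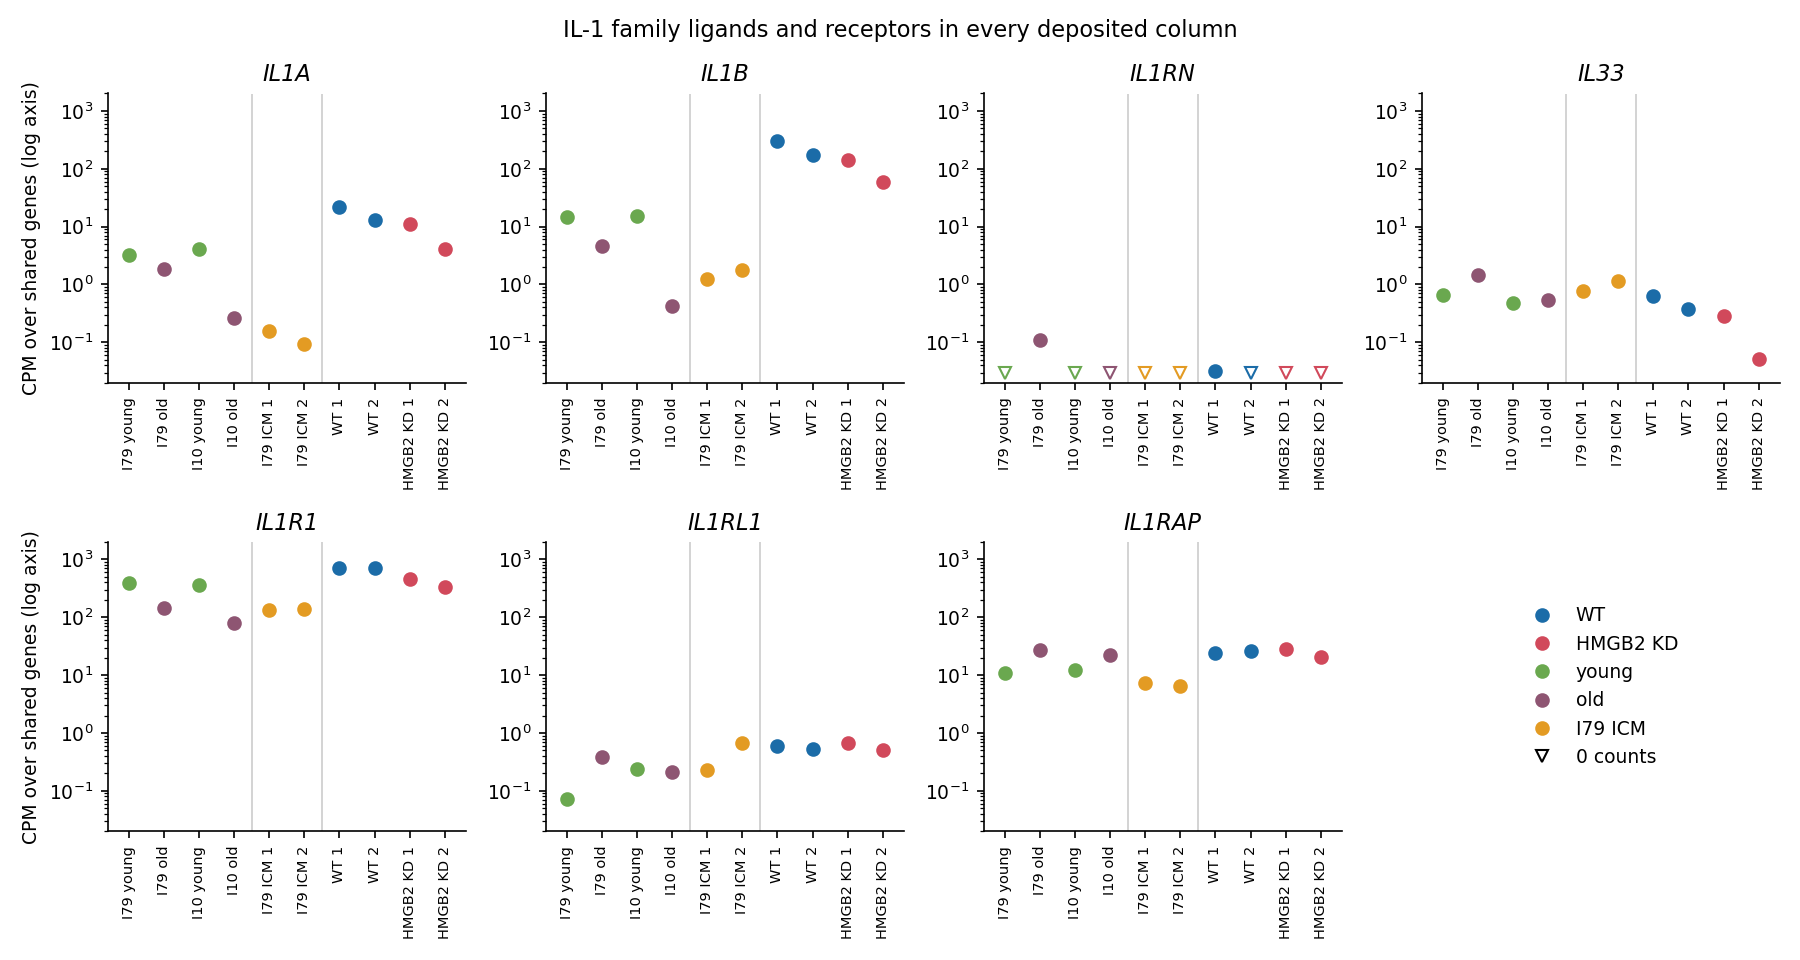
CPM (log axis) of each of the 7 genes over genes shared by all tables, with 1 point per deposited column and open triangles for columns with 0 counts. Grey lines part the 3 kinds of table, which were counted differently. IL1R1 ranged from 78.8 CPM in I10 old to 714 CPM in WT 1. CPM is not corrected for length, so heights compare columns of a gene and do not rank the genes.

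The knockdown of HMGB2 asks whether these genes depend on a chromatin protein whose level is known to fall in senescent cells. IL1R1 fell, and it was the only member called (an adjusted p below 0.01 together with a log2 fold change of more than 0.6 in size). The ligand genes IL1A and IL1B were also lower in both HMGB2 KD libraries than in both WT libraries but missed the threshold, and IL1RAP differed by less than its spread between replicates. Of the 6 members that passed the filter on low counts, 1 was called, where 5.2% of 15338 genes were called, 2.34% lower and 2.86% higher. The HMGB2 KD libraries were both below both WT libraries for 4 of the 6, where 26.4% of all genes showed this.

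The WT libraries held 658 and 645 CPM of IL1R1 and the HMGB2 KD libraries 443 and 321 CPM, from 12804 to 24079 counts per library. The WT mean was 651 ± 9.19 CPM (SD, n = 2) and the knockdown mean 382 ± 85.9 CPM (SD, n = 2). The WT pair lay close together and both HMGB2 KD libraries lay below it, the second further than the first. The log2 fold change was -0.77 (SE 0.16, edgeR adjusted p = 0.00772), which is 1.71-fold lower. Without the second HMGB2 KD library the change was -0.55 (adjusted p = 0.0687) and no member was called, so the call rests on that library.

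The accessory chain IL1RAP had 22.3 and 24.3 CPM in WT against 26.9 and 19.8 CPM with the knockdown, which is 0.0031 on the log2 scale (SE 0.16, adjusted p = 0.995). The groups overlapped, and the sign turned under several settings. For each IL1RAP count there were 29.5 and 26.6 IL1R1 counts in WT and 16.4 and 16.2 in HMGB2 KD, with no overlap. IL1RL1, the IL-33 receptor, had 19 and 18 counts in WT and 23 and 20 in HMGB2 KD, with a log2 fold change of 0.12 (SE 0.57). At this depth a change of that gene was not detectable.

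IL1B varied widely between replicates. WT held 281 and 157 CPM (219 ± 87.5, SD, n = 2), against 135 and 56.9 CPM with the knockdown (95.9 ± 55.1, SD, n = 2). The log2 fold change was -1.19 (SE 0.31, adjusted p = 0.0247). The lower WT library and the higher HMGB2 KD library were close together, although the groups did not overlap. Adjusted p ranged from 1.16e-16 with a replicate block to 0.307 with DESeq2 among the alternative fits, and the change was -0.70 without the second HMGB2 KD library.

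Of IL1A the WT libraries held 20.0 and 11.8 CPM and the knockdown libraries 10.5 and 3.99 CPM, from 159 to 686 counts. Its log2 fold change was -1.13 (SE 0.34, adjusted p = 0.0459). The libraries took the same order for IL1A as for IL1B, with WT 1 highest and HMGB2 KD 2 lowest. There were between 12.8 and 14.3 IL1B counts for each IL1A count in the 4 libraries, so the pair kept nearly the same ratio. Adjusted p for IL1A ranged from 6.95e-10 with a replicate block to 0.372 with DESeq2 among the alternative fits, and the change was -0.59 without the second HMGB2 KD library.

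IL33 had few counts, 20 and 13 in WT and 10 and 2 in HMGB2 KD (log2 fold change -1.53, SE 0.83, adjusted p = 0.294). IL1RN, the antagonist, had 1 count in WT 1 and none in the other 3 libraries, so it was not tested. A count of 0 allows up to 0.0804 CPM in WT 2 and up to 0.0819 and 0.0752 CPM in the HMGB2 KD libraries, for counting error only.

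**Figure D2:**
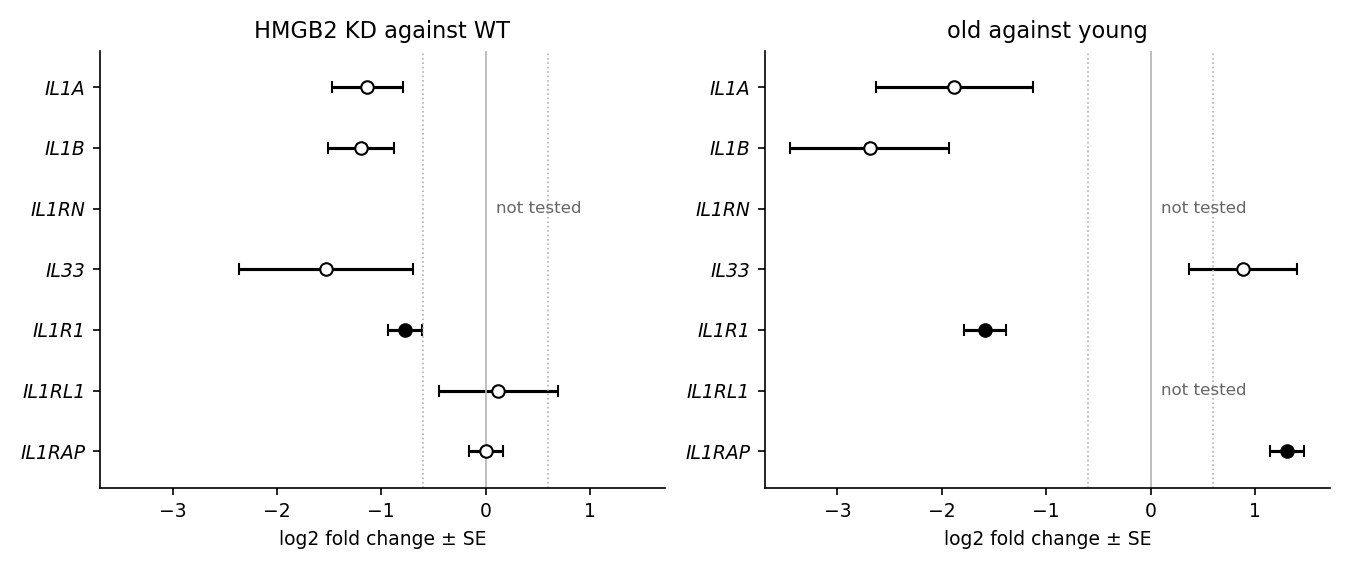
Log2 fold change (points) and SE (bars) of the 7 genes for HMGB2 KD against WT (left) and old against young (right), with filled points for called genes and dotted lines at 0.6 in each direction. IL1R1 was called lower in both panels, IL1RAP was called higher only for old against young, and the difference between the comparisons was not tested.

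Old cells were compared with young cells over both isolates, with the isolates as replicates and isolate as a covariate, which leaves 1 residual degree of freedom. IL1R1 fell and IL1RAP rose, in both isolates, and these were the 2 members called of 5 tested. On simulated counts this fit recovered 91.5% of 200 changed genes and made 31 false calls, more than its threshold allows. IL1B and IL1A were lower in both old columns without passing the threshold, IL33 was not called, and IL1RL1 and IL1RN had too few counts to test. Of 15116 genes, 9.57% were called, 3.82% lower and 5.75% higher.

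IL1R1 had 337 CPM in young and 144 in old I79 cells, and 317 CPM in young and 82.0 in old I10 cells. The young columns lay close together and both old columns lay well below them. The log2 fold change was -1.59 (SE 0.20, adjusted p = 0.00833). In I79 alone IL1R1 was 2.34-fold lower in old cells (95% exact counting interval 2.24 to 2.46) and in I10 alone 3.86-fold lower (3.65 to 4.09). The intervals of the isolates do not overlap, but they cover counting error only, and the difference between the isolates has no replicates to test it. Without the isolate covariate the adjusted p of IL1R1 was 0.0144.

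IL1RAP moved the other way. It had 9.47 CPM in I79 young, 26.6 CPM in old cells of that isolate, 10.6 CPM in I10 young and 23.2 CPM in I10 old, on 148 to 491 estimated counts. Its log2 fold change was 1.31 (SE 0.16, adjusted p = 0.00817). The rise was 2.81-fold in I79 (95% exact counting interval 2.34 to 3.40) and 2.19-fold in I10 (interval 1.84 to 2.60), and these intervals overlap. With length-scaled counts made from TPM the adjusted p was 0.0139. On the TPM scale the excess of the receptor over its accessory chain went from 27.4 to 4.16 IL1R1 transcripts per IL1RAP transcript in I79 and from 19.7 to 2.47 in I10.

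IL1B had 197 estimated counts in I79 young and 85 in I79 old, and 257 in I10 young and 8 in I10 old, which is 12.6, 4.61, 13.4 and 0.442 CPM. The young columns were alike and the old columns were not. IL1B was 2.73-fold lower in old I79 cells (95% exact counting interval 2.11 to 3.57) and 30.3-fold lower in old I10 cells (15.2 to 71.0). Over both isolates the log2 fold change was -2.69 (SE 0.76, adjusted p = 0.0539). DESeq2 called it (adjusted p = 4.95e-05), as did edgeR without the filter on low counts (adjusted p = 2.67e-12), while the adjusted p of the other fits lay between 0.0127 and 0.0842.

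IL1A showed a like split between the isolates at lower counts. It had 45 and 33 estimated counts in young and old I79 cells and 69 and 5 in young and old I10 cells. That is 1.61-fold lower in old I79 cells (95% exact counting interval 1.00 to 2.60) and by a log2 ratio of -3.70 in old I10 cells, an interval of 5.32-fold to 41.4-fold lower. The log2 fold change over both was -1.88 (SE 0.75, adjusted p = 0.12).

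IL33 had 9 and 26 estimated counts in young and old I79 cells and 8 and 10 in I10 cells (log2 fold change 0.89, SE 0.52, adjusted p = 0.249). The counting interval of the old to young ratio ran from 1.11 to 5.94 in I79 and from 0.471 to 3.86 in I10, so that a rise was seen beyond counting error in I79 and none was detectable in I10. IL1RL1 had 1, 7, 4 and 4 estimated counts in I79 young, I79 old, I10 young and I10 old, and IL1RN 2 in I79 old and 0 in the other 3.
 
CD68, TEK and KIT were higher in old than in young cells of both isolates: CD68 was at 24.4 and 26.7 CPM in the young columns of I79 and I10 and at 160 and 81.2 CPM in the old ones. These are the genes that carry the myeloid, endothelial and mast cell sums given above, and PTPRC, CDH5 and TPSAB1 were at or near 0 in the same columns. VWF, another endothelial marker, was higher too, at 0.511 and 0.420 CPM in young and 2.86 and 2.39 CPM in old I79 and I10 cells. The part of these markers in the members' values was not tested. Between the isolates in the young state, the ratio of I10 to I79 had a counting interval that included 1 for IL1A (0.846 to 1.86), IL1B (0.88 to 1.29), IL33 (0.243 to 2.12) and IL1RAP (0.9 to 1.39), and ran from 0.905 to 0.974 for IL1R1. In the old state IL1B was 10.4-fold lower in I10 than in I79 (5.06 to 24.9), IL1A 6.48-fold lower (2.51 to 21.3) and IL1R1 1.76-fold lower (1.65 to 1.87). IL1A and IL1B were thus close between the isolates when young and apart when old.

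The ICM libraries can be set beside I79 young cells only through genes shared by the tables, as a log2 ratio of CPM with a prior count of 2. The tables were counted in different ways, so treatment and counting cannot be told apart and no test was made. IL1A, IL1B and IL1R1 lay far below I79 young, IL1RAP lay lower by a small margin, IL1RL1 lay higher on few reads, and IL33 was within 0.6. Of the 6 members compared, 4 were lower by more than 0.6 and 1 was higher, where 30.1% of 14694 genes were lower and 31% higher. The 1 higher member, IL1RL1, passed the filter on low counts only through I79 ICM 2 (0.659 CPM) and WT 1 (0.602 CPM). Its place among the higher genes thus follows partly from that filter.

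IL1B had 16 and 19 reads in the ICM libraries, 1.24 and 1.79 CPM over shared genes, against 14.4 CPM in I79 young and 4.68 in I79 old. Its log2 ratio to I79 young was -3.20, and with reads summed it was 9.65-fold lower (95% exact counting interval 6.71 to 14.3). Against I79 old it was 3.14-fold lower (2.10 to 4.80). Both ICM libraries were thus below both I79 columns. IL1A had 2 and 1 reads, a log2 ratio of -4.01 to I79 young. Summed, those 3 reads gave 0.0389 of the I79 young level, with a counting interval of 0.00773 to 0.121.

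IL1R1 had 1718 and 1498 reads in the ICM libraries, 133 and 141 CPM over shared genes, against 385 in I79 young and 146 in I79 old. The log2 ratio was -1.49 to I79 young and -0.09 to I79 old. Counted over all reads, the receptor was thus near its level in I79 old. Only 34.1% and 33.9% of the IL1R1 reads fell in the coding region and 60.4% in the 3′ untranslated region of each library, where 61.1% and 61.9% of all reads were coding. IL1R1-205, the transcript with most IL1R1 counts in I79 young, has a coding region of 569 codons in 5143 bases. With 3′ and 5′ untranslated reads left out of the ICM libraries only, the log2 ratio to I79 young was -2.41. I79 young kept its counts over whole transcripts there. That ratio thus cannot be set beside the -1.40 of I79 old against I79 young.

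IL1RAP had 94.8 and 69 reads, 7.37 and 6.49 CPM over shared genes, against 10.8 in I79 young and 27.0 in I79 old. Its log2 ratio was -0.64 to I79 young and -1.95 to I79 old, so the accessory chain lay below both, on the other side of young cells from the old ones. IL33 had 10 and 12 reads and a log2 ratio of 0.46, which was -0.27 with untranslated reads left out of the ICM libraries only. IL1RL1 had 3 and 7 reads (log2 ratio 1.61 against 1 estimated count in I79 young). IL1RN had no read, which allows up to 0.233 and 0.282 CPM. Marker genes of other cell types and of fibroblasts also differed from I79 young: KIT stood at 21.2 and 20.8 CPM in ICM against 0.365, CD68 at 59.5 and 66.3 against 24.4, and PDGFRA at 88.9 and 100.2 against 1305. Their part in the members' values was not tested.

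WT was set beside I79 young in the same way, although their isolate, handling and counting may differ. HMGB2 itself was at 29.4 and 29.6 CPM over shared genes in WT and at 139 in I79 young. IL1B stood 3.98 higher in WT on the log2 scale, IL1A 2.31, IL1RL1 2.02, IL1RAP 1.22 and IL1R1 0.88, while IL33 was at -0.36. Thus 5 of 6 members were higher by more than 0.6 and none lower, where 20.3% of genes were higher and 24.3% lower. IL1RL1 is among the 5, but it passed the filter on low counts only through WT 1 and I79 ICM 2, so it adds no support. IL1B thus differed more between WT and I79 young than between ICM and I79 young, and IL1A less. Against WT in place of I79 young the ICM log2 ratio was -7.17 for IL1B, -6.32 for IL1A, -2.36 for IL1R1, -1.85 for IL1RAP, 0.83 for IL33 and -0.41 for IL1RL1.

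**Figure D3:**
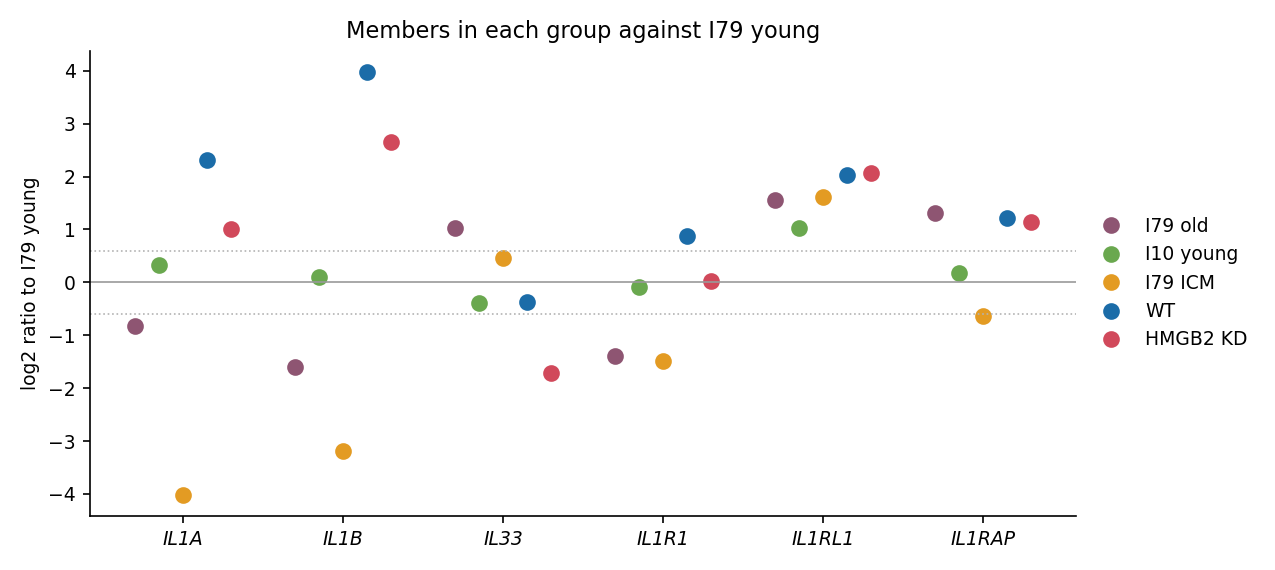
Log2 ratio to I79 young (CPM over shared genes, prior count 2) of 6 genes in I79 old, I10 young, I79 ICM, WT and HMGB2 KD, with 1 point per group and dotted lines at 0.6 in each direction. IL1B ranged from -3.20 in I79 ICM to 3.98 in WT. Over all reads IL1R1 lay at -1.49 in I79 ICM and at -1.40 in I79 old. With untranslated reads left out of ICM only it was -2.41, which cannot be set beside these. IL1RN had too few reads to plot.

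The old and young tables also give estimated counts per transcript. IL1R1-205, which encodes the full receptor of 569 codons, held 87.7% of IL1R1 counts in young and 94.4% in old I79 cells, against 85.5% and 89.6% in those of I10. IL1R1-203, annotated with a coding region of 173 codons, held 10.2% (95% exact interval 9.42 to 11.1) in I79 young and 4.02% (3.32 to 4.85) in I79 old. In I10 it held 10.9% (10.1 to 11.7) in young and 7.59% (6.32 to 9.09) in old cells. Its share was lower in the old column of each isolate beyond counting error, on top of the fall of the gene as a whole: IL1R1-203 went from 16.7 to 2.54 TPM in I79 and from 17.1 to 2.62 TPM in I10. Shares of estimated counts carry the error of the assignment to transcripts too, which these intervals do not cover.

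IL1RAP makes a membrane form and, by ending early, a soluble form that lacks the signalling domain. The 3 transcripts with the full coding region of 570 codons held 78.5% and 84.9% of IL1RAP counts in young and old I79 cells and 75.7% and 76.5% in young and old I10 cells. The 2 transcripts with the short coding region of 356 codons held 20.2% (95% exact interval 14.1 to 27.7) in I79 young and 14.1% (11.1 to 17.4) in I79 old. In I10 they held 17.9% (12.7 to 23.7) in young and 21.1% (17.2 to 25.2) in old cells. The share of the short form went down in 1 isolate and up in the other with overlapping intervals, so no shift was detectable. Both forms rose in TPM in both isolates, the full form from 2.75 to 7.42 in I79 and from 2.97 to 5.63 in I10, and the short form from 1.66 to 2.97 and from 1.69 to 3.79.

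The ligands gave little variety. All IL1A counts fell on IL1A-201 of 271 codons, and IL1B-201 held between 96.1% and 98.4% of IL1B counts in the columns other than I10 old, which had only 8. IL33-201, with the full coding region, held 66.7% to 80% of IL33 counts, on 8 to 26 counts per column.

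**Figure D4:**
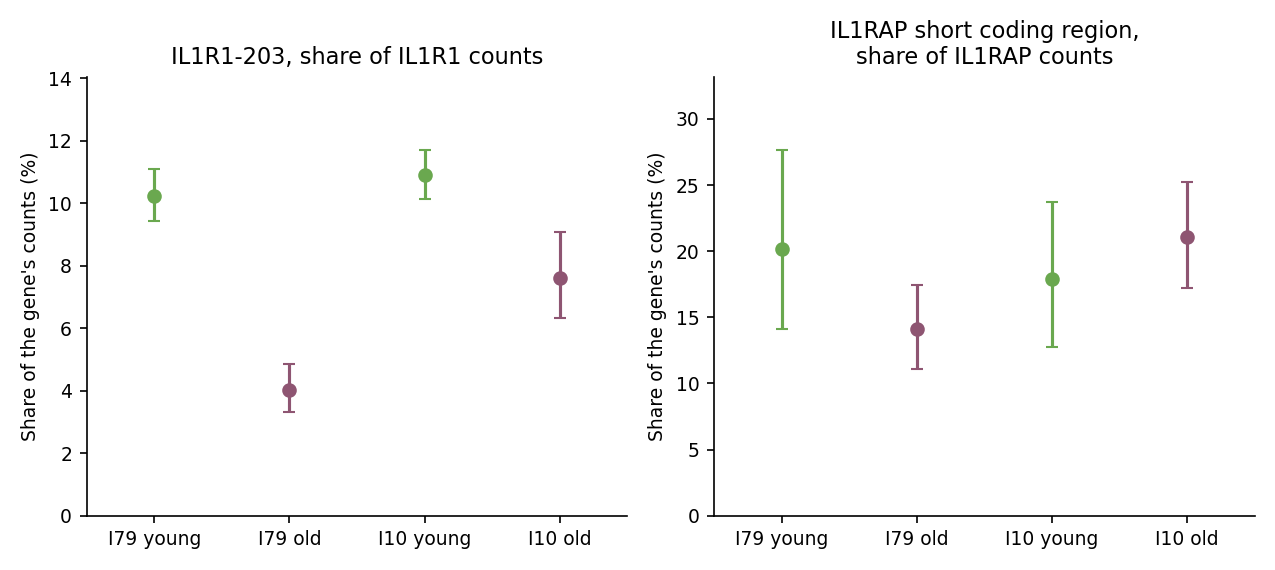
Share (%) of IL1R1 counts on IL1R1-203 (left) and of IL1RAP counts on transcripts with the short coding region (right) in each old and young column, with 95% exact counting intervals. The IL1R1-203 share was lower in old than in young cells of both isolates, while the intervals for IL1RAP overlapped.

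A list of 78 other genes of the pathway, drawn up by role with earlier results of these data known, was read from the same fits. Its shares called, set beside those of all genes, are thus not independent of these data. For HMGB2 KD against WT, 65 were tested and 13 (20%) were called, all lower, where 5.2% of all genes were called and 2.34% called lower, and their median lay at -0.26 on the log2 scale, against 0.0018 for all genes. Most of the called genes were targets of IL-1 in fibroblasts: 10 of 30 (33.3%) were called lower and none higher, with a list median of -0.89. By sign, 28 targets were lower and 2 higher. PTGS2, the inducible cyclooxygenase of prostaglandin synthesis, had 999 and 567 CPM in WT against 202 and 72.2 CPM with the knockdown (log2 fold change -2.51, SE 0.36, adjusted p = 5.90e-04). CCL20, a chemokine for lymphocytes and dendritic cells, had a log2 fold change of -2.55 (SE 0.52). That of BCL2A1, a survival factor of the BCL2 family, was -2.24 (SE 0.46), and that of CXCL5, a neutrophil chemokine, -1.95 (SE 0.42). In each of these 4 genes WT 1 was the highest and HMGB2 KD 2 the lowest library, as for IL1A and IL1B.

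None of the 17 receptor signalling genes was called, and their median was -0.038 on the log2 scale, with 7 higher and 10 lower by sign. IRAK3 (-0.98, edgeR adjusted p = 0.0136) and PELI2 (-0.68, edgeR adjusted p = 0.0114) narrowly missed the threshold. Of 12 tested genes of processing and release, CASP1, the protease that cuts pro-IL-1 beta, fell by 0.74 (SE 0.13, adjusted p = 0.0027) and CARD16, a CASP1 inhibitor, fell by 0.63 (SE 0.13) on the log2 scale. IL18R1, the IL-18 receptor, went from 50.1 and 34.2 CPM to 23.2 and 13.2 CPM (log2 fold change -1.21, SE 0.23, adjusted p = 0.00368) and was the only called gene of 6 tested among other receptors and binding proteins. None of the 7 other ligands of the family had enough counts. Without the second HMGB2 KD library 1 pathway gene was called, and without the second WT library 24 genes were called.

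For old against young, 62 of the 78 genes were tested, 6 were called higher and 1 lower (11.3%, near the 9.57% of all genes), and their median lay at 0.16 on the log2 scale, against -0.0099 for all genes. Among 26 tested targets 3 were called higher and 1 lower (15.4%, where 9.57% of all genes were called). By sign, 18 were higher and 8 lower. BIRC3, an inhibitor of apoptosis induced by NF-kB, stood at 0.832 CPM in young and 16.8 in old I79 cells, and at 1.62 and 13.9 CPM in those of I10 (3.63 on the log2 scale, SE 0.34, adjusted p = 0.0053). STC1, a secreted glycoprotein, rose from 26.1 to 340 CPM and from 31.9 to 289 CPM, and CCL2, a monocyte chemokine, rose by 2.58 on the log2 scale (SE 0.11) to 89.7 and 141 CPM. CXCL6, another neutrophil chemokine, fell from 2.69 to 0.163 CPM and from 2.87 to 0.0553 CPM. Whether these changes relate to the lower IL1R1, IL1A and IL1B in the same columns was not tested.

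Of 17 signalling genes IKBKB, a kinase that activates NF-kB, rose by 0.79 (SE 0.11) on the log2 scale. Of 13 genes of processing and release, GSDME, a pore-forming gasdermin, rose by 1.10 (SE 0.13) and CASP4, an inflammatory caspase, by 0.87 (SE 0.11). Neither the 5 other receptors and binding proteins tested nor IL18, the only other ligand tested, held a call. The list holds the same columns as the members, and no test was made of the list as a whole.

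**Figure D5:**
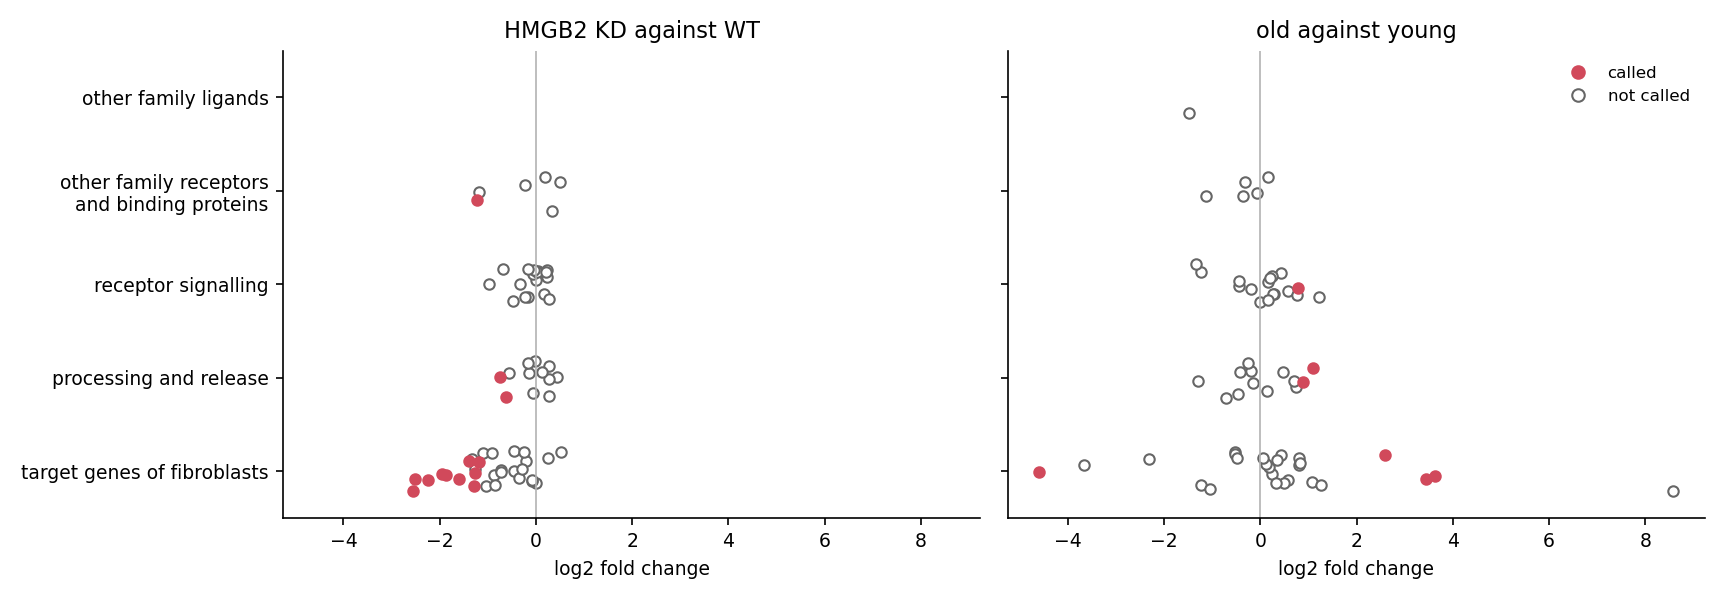
Log2 fold change of each tested pathway gene by role for HMGB2 KD against WT (left) and old against young (right), with called genes filled, and points spread vertically only to part them. The 13 called genes on the left are all below 0, and the 7 on the right lie on both sides. The open point farthest to the right is CSF2, with 0 counts in both young columns.

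The genes whose pattern was most like that of a member were taken from 11375 genes with a mean of at least 1 CPM in each kind of table, by Pearson's correlation of log2 CPM over the 8 columns of WT, HMGB2 KD, old and young, centred on each kind of table. The 8 points share tables, depth and groups, and the highest of 11375 correlations is high by its choice, so these are descriptions only. For IL1A the nearest gene was IL1B (r = 0.987), followed by ADGRG1, TRMT5, ZNF525 and FASTKD2. For IL1B they were RIPOR2 (r = 0.991), UTP18, ZNF485, PMS2 and IL1A. For IL1R1 they were ADGRL2 (r = 0.998), CPT1A, CYBC1, SMAD1 and RBBP4, and for IL1RAP PEX7 (r = 0.993), TDRD7, PIGV, RDH10 and BATF3. The ligands IL1A and IL1B stood among the 5 nearest genes of each other, while neither receptor chain had another member among its own.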

How the data were processed

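The authors deposited 3 kinds of table: raw counts per gene for WT and HMGB2 KD, estimated counts and TPM per transcript for the old and young groups (1 column each, either pooled or of 1 replicate, which is not given), and estimated counts per gene and transcript region for ICM. The submitters' notes name STAR 2.6.0c, featureCounts, DESeq2 and GRCh37, but the gene tables end with summary rows of the htseq-count kind (16.9% to 18.0% of totals, left out). Deposited transcript estimates were summed per gene through GENCODE v44lift37, which matched 97.7% of identifiers, and rounded. Tests used edgeR 4.0.16 (R 4.3.3), quasi-likelihood with TMM scaling, filterByExpr and Benjamini-Hochberg adjustment over all genes. Calls followed the thresholds in the study's methods, an adjusted p below 0.01 with a log2 fold change of more than 0.6 in size; its results also use 0.05, tried here as an alternative. DESeq2 1.42.0, RUVs, other scalings, filters and blocks served as alternatives. The SE is the log2 fold change over the square root of F. Scripts were tested on simulated counts. In those counts the old against young fit made more false calls than its threshold allows. Exact (Clopper-Pearson) intervals and the limit that a count of 0 allows (3 counts) cover counting error alone.

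The members, the pathway list and the markers were chosen with earlier results of these data known. Named genes are all members, up to 4 called pathway genes of each role and comparison with the largest absolute log2 fold change, the 5 genes most like each member, and HMGB2. No pair of replicates was a duplicate, since the chi-square of their counts, divided by its degrees of freedom, was at least 2.10.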

Additional observations from a re-analysis of the deposited data

Results flagged for a closer look

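Among the members and the named pathway genes, 3 genes had an old to young ratio above 1 in one isolate and below 1 in the other, and in none of them was the difference between the isolates tested. For PTGS2 the log2 ratio was 1.21 in I79 (77 and 210 estimated counts in young and old cells) and -1.09 in I10 (124 and 55), a difference of 2.30. For IL18R1 the log2 ratio was 0.51 in I79 (53 and 89) and -0.21 in I10 (66 and 54), a difference of 0.72. For CASP1 it was -0.018 in I79 (503 and 586) and 0.28 in I10 (363 and 417), a difference of -0.30. With 1 column per isolate and age these differences have no replicate check.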

How the results depend on the processing

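The limits of these values are few columns, 1 residual degree of freedom for old against young, and counts under about 30 for IL33, IL1RL1 and IL1RN and, in I10 old and ICM, for IL1A and IL1B. Unless said otherwise the cause of a difference between settings was not tested.

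For HMGB2 KD against WT, 3 members were called in place of 1 without the filter on low counts, at an adjusted p under 0.05, with 1 RUVs factor and with a replicate block, the added genes being IL1A and IL1B each time. Pathway calls were 24 without the filter, 5 with DESeq2, 23 with RUVs and 24 with the replicate block, against 13. With the replicate block 1243 genes were called, against 797. Whether same-numbered libraries belong together is not given. Their deviations correlated at r = 0.124 over 15338 genes, and 2 pairs are too few to decide it. In both groups IL1A and IL1B were higher in the first library than in the second. Leaving out 1 library gave 312 to 999 genes, 0 to 3 members and 1 to 24 pathway genes. The lowest numbers came without the second HMGB2 KD library.

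The log2 fold change of IL1RAP, 0.0031, turned to -0.0013 with DESeq2 size factors, -0.060 with plain totals, -0.0066 without the filter, -0.0010 with DESeq2 and -0.011 with the replicate block, and lay between -0.25 and 0.21 without 1 library. That of IL1RL1 lay between -0.056 and 0.28.

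For old against young, 1447 genes were called, and 3130 with plain totals (1019 higher and 2111 lower, against 869 and 578), 4251 without the filter and 3860 at an adjusted p under 0.05. Plain totals moved the median of all genes to -0.22. Member calls were 4 without the filter, 1 without the isolate covariate (IL1RAP) and 1 with length-scaled counts (IL1R1), against 2. Pathway calls were 15 with plain totals, 23 without the filter, 12 with DESeq2 and 18 at an adjusted p under 0.05, against 7. For ICM, 3 members were past 0.6 against I79 old in place of 5, and the ratio of IL1RL1 turned to -0.41 against WT.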

Other observations

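Several pathway genes outside the rule for named genes were picked here after their values were seen, and no test of their own is given beyond the fits described. MMP3, a matrix-degrading enzyme, stood at 169 and 176 CPM over shared genes in the ICM libraries, at 0.73 in I79 young and at 0 in I79 old, and MMP1, an interstitial collagenase, at 204 and 222 CPM in ICM against 30.0 and 18.9. TNFAIP3, an inhibitor of NF-kB signalling, went the other way, with 2.41 and 1.60 CPM in ICM, 22.7 in I79 young and 55.7 in I79 old. IL18, another ligand of the family, stood at 5.36 and 4.61 CPM in ICM, 2.12 in I79 young and 0.385 in I79 old. These ratios between tables hold the counting as well as the treatment.

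CSF2, the growth factor GM-CSF, was at 0 in both young columns and at 2.31 CPM in I79 old and 2.87 in I10 old (adjusted p = 0.0101 for old against young). MYD88, the adaptor of the receptor, stood at 4.69 CPM in I79 young and 4.63 in I79 old but at 21.7 in I10 young and 3.23 in I10 old. In the tables counted differently it stood at 65.6 and 66.5 CPM in WT, 65.8 and 59.8 in HMGB2 KD, and 60.7 and 67.4 in ICM. Counting and isolate cannot be told apart here, and the cause of the low values was not tested.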
